A study of Homo sapiens with 6 samples.

Results

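The inhibitors and brakes of NF-kB signalling were followed in Caco-2 cells over a time course of coculture with THP-1 cells, with arrays at 0, 1, 3, 6, 24 and 48 h. The 9 genes are NFKBIA, NFKBIB, NFKBIE, NFKBIZ, BCL3, TNFAIP3, TNIP1, TNIP3 and ZC3H12A. In the array's annotation 19775 genes had a probe set of their own, among them 7 of these 9. The 9 genes were chosen by name for their role, with earlier results of these data known. Every probe set annotated to exactly 1 of these symbols was taken. That gave 13 probe sets for 7 of the 9 genes. BCL3, a nuclear IkB relative, and ZC3H12A, an RNase that degrades cytokine mRNA, are covered by 3 probe sets that each carry the symbol of a microRNA as well, so no value is given for these 2 genes. Of the 7 genes, 6 were measured, which means above the floor on at least 1 array, and these 6 were above it on every array. TNIP3 was under it throughout.

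Caco-2 cells come from a human colorectal adenocarcinoma, and their monolayers resemble enterocytes. THP-1 is a line of human monocytic leukaemia, made macrophage-like with phorbol myristate acetate (PMA). In all 6 groups the Caco-2 cells had been on a semi-permeable support for 14 days and the THP-1 cells had received PMA for 4 days, in plates of 12 wells over which the support was then set. By the labels, the groups differ by the time of coculture alone. Each has 1 array and no replicate, so no test was possible, no p-value is given and every value below has n = 1. No time-matched Caco-2 array without THP-1 was analysed here, so THP-1 cells and the time since transfer cannot be told apart.

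The values are MAS5 signals, a linear measure of brightness per probe set. The floor was a signal of 16.2, the 50th percentile over the whole table. A gene is called higher or lower where it differed at least 2-fold from the 0 h array and the brighter array was above the floor. Array medians were 15.3 to 16.7, and 12017 to 12296 genes were above the floor. Of the 10 macrophage markers with a probe set, 4 to 7 were above the floor on an array, PTPRC and SPI1 on none. Single markers moved in opposite directions: AIF1 had a signal of 43.0 after 48 h, against 360.0 at 0 h, while LYZ had 411.7, against 246.5. The summed signal of the 10 was 786.4 at 0 h and 479.8 to 659.5 later. Of the 11 enterocyte markers, 10 or 11 were above the floor, with a summed signal of 17496 at 0 h and 18446 to 20068 later, which hides members that moved. After 48 h SI was 4.50-fold, FABP1 4.37-fold and LGALS4 2.25-fold lower than at 0 h, CDX2 was 3.51-fold lower after 3 h, and KRT20 was 4.04-fold higher after 24 h. The part of these marker changes in the results was not tested. The ratio between the 3' and 5' control probe sets for ACTB, which follows RNA integrity and labelling, was 51.2 at 0 h and then 27.7, 22.9, 18.0, 27.9 and 37.0 after 1, 3, 6, 24 and 48 h. It was highest on the 0 h array, where 4 of the 6 measured inhibitors had their lowest signal by their brightest probe sets. The share of all genes with their lowest signal on that array was not computed. The same ratio for GAPDH was 4.69 at 0 h, then 3.81, 4.29, 3.54, 4.72 and 4.23, and was highest on the 24 h array. The part of either ratio in the results was not tested. In bulk RNA, fewer cells of a type and less RNA per cell cannot be told apart.

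NF-kB transcription factors wait in the cytoplasm bound to IkB proteins. Receptors for TNF, interleukin-1 or microbial products activate the IkB kinase, which marks the IkB proteins for destruction and frees NF-kB to enter the nucleus. Among the genes that NF-kB then switches on are several of its own inhibitors, which makes the pathway a negative feedback loop. In mouse intestinal epithelium, loss of TNFAIP3 is known to make the cells sensitive to death induced by TNF.

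NFKBIA encodes IkB-alpha, the cytoplasmic inhibitor that binds NF-kB dimers and, when made anew, carries them out of the nucleus. Its promoter window is shown because the gene was near its highest signal on the first array after 0 h. The window runs from 250 bases before to 50 after the start site (RefSeq, GRCh38.p14, chr14:35404700-35404999, minus strand), and capitals mark matches to the relaxed kB motif GGNNNTTCC on either strand.
NFKBIA: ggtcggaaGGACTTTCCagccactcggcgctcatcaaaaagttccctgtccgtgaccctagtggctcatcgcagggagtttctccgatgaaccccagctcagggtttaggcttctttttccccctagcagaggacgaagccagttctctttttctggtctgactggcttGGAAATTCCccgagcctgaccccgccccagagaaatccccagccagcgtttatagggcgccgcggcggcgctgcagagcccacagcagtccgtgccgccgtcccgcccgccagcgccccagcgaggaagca
The matches begin at positions -242 and -81 from the start site, and the one at -81 overlaps a match to the NF-kB consensus. The brighter probe set, 201502_s_at, had a signal of 682.5 on the 0 h array, then 3203, 3230, 3103, 1457 and 505.5 after 1, 3, 6, 24 and 48 h. The 3 early coculture arrays formed a plateau, the 24 h array lay between it and the 0 h array, and the 48 h array was the lowest of all. Relative to 0 h, NFKBIA was 4.69-fold higher after 1 h, 4.73-fold after 3 h, 4.55-fold after 6 h and 2.13-fold after 24 h. After 48 h the log2 ratio was -0.43. The other probe set, 231699_at, was dim, with a signal of 21.6 on the 0 h array, then 21.9, 33.2, 31.8, 42.7 and 20.1. It showed no plateau: its log2 ratio was 0.02 after 1 h and 0.98, its highest, after 24 h.

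NFKBIB encodes IkB-beta, another cytoplasmic inhibitor, and did not follow NFKBIA. Of its 2 promoter windows the one with matches is shown as a contrast, since the brightest probe set of this gene, unlike its dimmer ones, stayed within a narrow range (chr19:38899719-38900018, plus strand, same motif in capitals).
NFKBIB: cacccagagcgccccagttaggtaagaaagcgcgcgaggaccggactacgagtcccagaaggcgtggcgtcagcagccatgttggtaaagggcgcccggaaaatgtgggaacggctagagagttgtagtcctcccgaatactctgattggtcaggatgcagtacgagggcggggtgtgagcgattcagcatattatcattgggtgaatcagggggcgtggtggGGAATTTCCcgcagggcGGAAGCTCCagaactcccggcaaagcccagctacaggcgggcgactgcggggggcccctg
One match begins at -27 and overlaps the NF-kB consensus, and the other begins at -10. The brightest probe set, 214448_x_at, had a signal of 102.0 on the 0 h array, then 107.1, 75.3, 77.4, 97.5 and 80.5 after 1, 3, 6, 24 and 48 h. The 6 arrays lay within 1.42-fold, and no time reached 2-fold in either direction. A further probe set, 214062_x_at, ranged from 30.5 on the 48 h array to 72.1 on the 6 h array. The dimmest, 228388_at, was under the floor at 0 h and reached 41.1 after 48 h, at least 2.53-fold higher, while the other 2 had log2 ratios of -0.34 and -0.63 there. Probe sets with the _x_at ending can bind transcripts of other genes, so NFKBIB is the least certain of the 6.

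NFKBIE encodes IkB-epsilon, an IkB that is itself a target of NF-kB and is known for a later feedback than IkB-alpha. Its single probe set, 203927_at, had a signal of 98.2 on the 0 h array, then 237.1, 390.1, 447.3, 330.8 and 179.0 after 1, 3, 6, 24 and 48 h. Each array up to 6 h was higher than the one before it, and both late arrays lay between the 6 h and the 0 h array. NFKBIE was 2.42-fold higher than on the 0 h array after 1 h, 3.97-fold after 3 h, 4.56-fold after 6 h and 3.37-fold after 24 h. After 48 h it was 1.82-fold higher, short of the 2-fold rule.

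NFKBIZ encodes IkB-zeta, a nuclear member of the family that binds NF-kB on DNA and is needed for a subset of its target genes while it restrains others. RefSeq gives 2 start sites, and both windows are shown because each holds a match (chr3:101827740-101828039 and chr3:101849264-101849563, plus strand).
NFKBIZ, upstream start: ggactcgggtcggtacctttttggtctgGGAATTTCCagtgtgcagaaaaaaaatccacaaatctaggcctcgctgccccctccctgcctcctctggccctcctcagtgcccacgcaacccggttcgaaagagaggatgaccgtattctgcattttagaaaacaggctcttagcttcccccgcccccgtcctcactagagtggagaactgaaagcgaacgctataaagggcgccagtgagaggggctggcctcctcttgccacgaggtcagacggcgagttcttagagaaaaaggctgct
NFKBIZ, downstream start: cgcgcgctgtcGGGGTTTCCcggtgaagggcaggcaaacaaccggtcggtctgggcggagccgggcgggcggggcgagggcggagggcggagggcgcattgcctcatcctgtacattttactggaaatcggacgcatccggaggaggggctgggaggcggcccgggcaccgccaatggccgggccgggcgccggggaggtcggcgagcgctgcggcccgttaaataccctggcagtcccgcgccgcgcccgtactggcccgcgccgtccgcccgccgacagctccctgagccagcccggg
The matches begin at -222 and -239 from their own start sites, and both overlap the NF-kB consensus. The brighter probe set, 223218_s_at, had a signal of 874.1 on the 0 h array, then 1771, 1986, 1966, 1750 and 1438 after 1, 3, 6, 24 and 48 h. All 5 coculture arrays lay above the 0 h array, within a narrow range. The log2 ratios were 1.02, 1.18, 1.17, 1.00 and 0.72 over those 5 times, so those after 1 and 24 h sit almost on the 2-fold line. The dimmer probe set, 223217_s_at, had 38.4 on the 0 h array, then 43.6, 74.8, 85.2, 56.3 and 51.9. It passed the 2-fold rule on the 6 h array alone, with 2.22-fold. After 1 h the probe sets differed, with log2 ratios of 1.02 and 0.18.

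TNFAIP3 encodes the ubiquitin-editing enzyme that takes activating ubiquitin chains off signalling proteins upstream of the IkB kinase. Its promoter window is shown because it holds 2 matches close together (chr6:137867009-137867308, plus strand).
TNFAIP3: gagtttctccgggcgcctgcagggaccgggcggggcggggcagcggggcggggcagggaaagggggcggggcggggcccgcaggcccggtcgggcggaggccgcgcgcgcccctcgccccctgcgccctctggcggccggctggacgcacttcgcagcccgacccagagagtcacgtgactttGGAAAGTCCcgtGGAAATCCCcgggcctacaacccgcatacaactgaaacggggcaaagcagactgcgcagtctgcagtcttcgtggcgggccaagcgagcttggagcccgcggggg
These begin at -67 and -55, match on the strand opposite to the gene, and both overlap the NF-kB consensus. The brighter probe set, 202644_s_at, had a signal of 190.1 on the 0 h array, then 1802, 1778, 1819, 889.9 and 250.9 after 1, 3, 6, 24 and 48 h. The other, 202643_s_at, had 51.7 on the 0 h array, then 574.6, 706.6, 784.2, 327.6 and 110.5. In both, the 3 early arrays were highest, the 24 h array was intermediate and the 0 h array was lowest. After 1 h TNFAIP3 was 9.48-fold higher by the first and 11.1-fold by the other probe set, after 6 h 9.57-fold and 15.2-fold, and after 24 h 4.68-fold and 6.34-fold. TNFAIP3 had the largest ratios of the 6 measured genes over these times. After 48 h the probe sets fell on opposite sides of the 2-fold rule, with 1.32-fold and 2.14-fold.

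TNIP1 and TNIP3 encode proteins that bind ubiquitin chains and TNFAIP3 and dampen signalling to NF-kB. A window with matches is shown for each, for TNIP1 as a gene that was higher (chr5:151080985-151081284, minus strand) and for TNIP3 as one that was not detected (chr4:121227434-121227733, minus strand).
TNIP1: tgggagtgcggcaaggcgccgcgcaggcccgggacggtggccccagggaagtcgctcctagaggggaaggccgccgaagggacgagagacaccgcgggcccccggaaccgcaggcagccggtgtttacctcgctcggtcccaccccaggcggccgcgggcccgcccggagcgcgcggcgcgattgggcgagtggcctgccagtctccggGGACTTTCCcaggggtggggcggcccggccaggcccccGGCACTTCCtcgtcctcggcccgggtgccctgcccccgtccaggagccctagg
TNIP3: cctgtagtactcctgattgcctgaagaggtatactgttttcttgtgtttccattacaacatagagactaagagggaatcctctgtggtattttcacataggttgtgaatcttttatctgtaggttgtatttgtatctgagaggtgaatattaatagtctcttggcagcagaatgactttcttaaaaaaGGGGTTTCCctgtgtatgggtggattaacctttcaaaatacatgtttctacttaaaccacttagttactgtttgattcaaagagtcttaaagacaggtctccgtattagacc
In the TNIP1 window shown the matches begin at -41 and -3, and in the TNIP3 window shown the match begins at -62. A further window of TNIP1 held no match. Of the further windows of TNIP3, the first held a match beginning at -60 and the other held none. The brighter probe set of TNIP1, 207196_s_at, had a signal of 737.4 on the 0 h array, then 1074, 1655, 1879, 1560 and 1333 after 1, 3, 6, 24 and 48 h. It climbed over the first 3 coculture arrays, and the late arrays stayed closer to the 6 h than to the 0 h array. The ratio was 1.46-fold after 1 h, short of the 2-fold rule, then 2.24-fold, 2.55-fold and 2.12-fold after 3, 6 and 24 h, and 1.81-fold after 48 h. A further probe set, 243423_at, was above the floor on the 24 h array alone, with a signal of 20.1. Taking the median of both probe sets, with the dim one at the floor elsewhere, ended each TNIP1 call, with log2 ratios of 0.58, 0.67 and 0.69 after 3, 6 and 24 h. TNIP3 had signals between 0.67 and 1.32 on the 6 arrays. These lie far under the floor, so no fold is given, and TNIP3 was not detectable with this probe set.

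**Figure D1:**
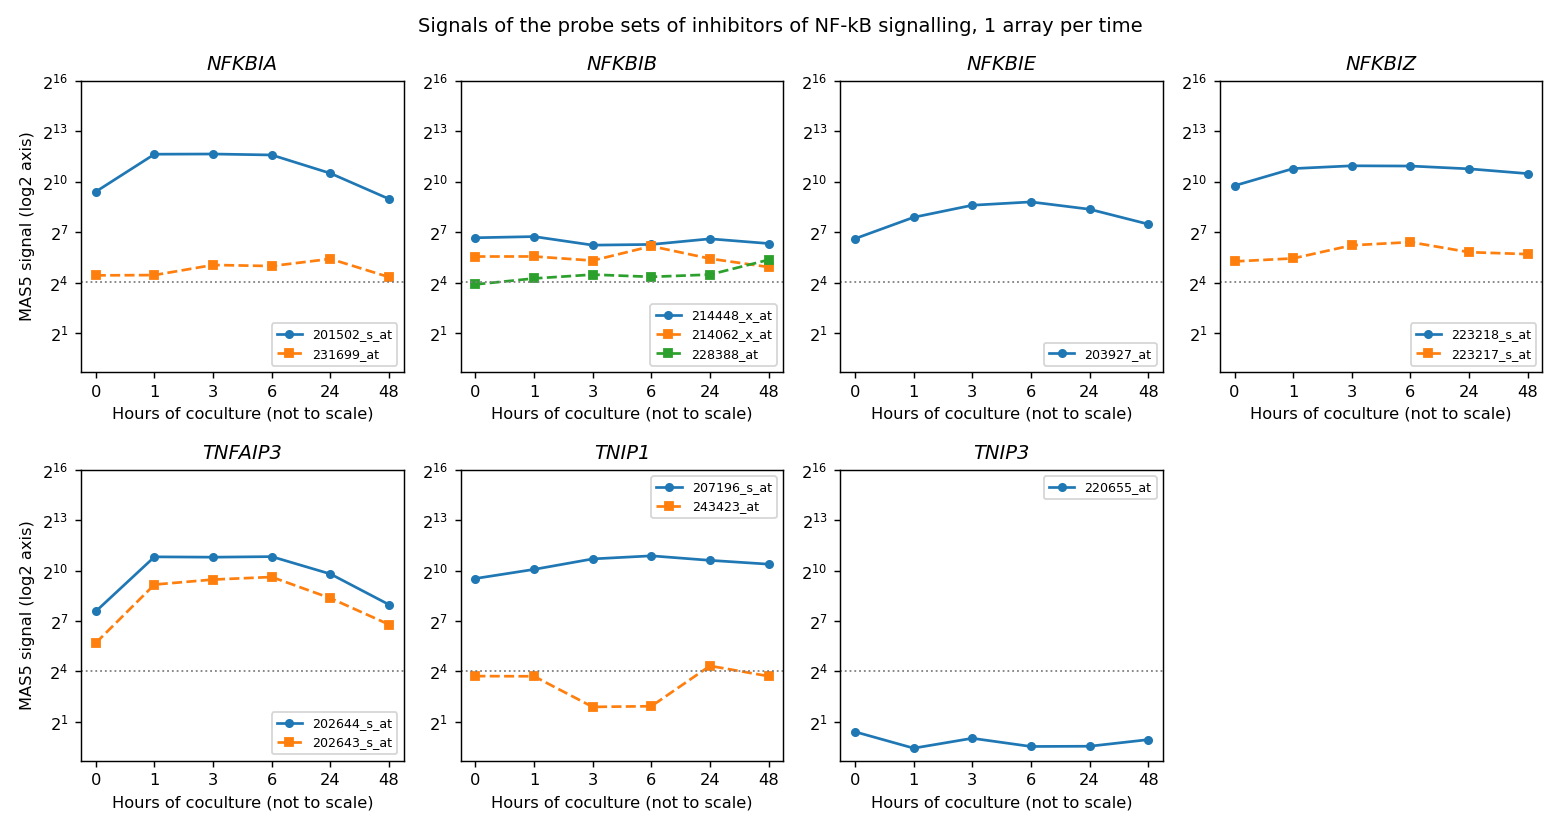
MAS5 signal (log2 axis) of all 13 probe sets of 7 inhibitor genes against hours of coculture, 1 array per time, with the brightest probe set of each gene as a solid line, the others dashed, and the floor of 16.2 dotted. The brighter probe sets of NFKBIA and TNFAIP3 show a plateau over the 3 early coculture arrays, NFKBIE and TNIP1 climb up to the 6 h array, and TNIP3 stays near 1.

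Over the windows listed for all genes, 20.1% of 35116 held at least 1 match to the relaxed motif and 11.3% one to the NF-kB consensus, which overlaps it. Of the 8 inhibitor genes with a window, 7 held the relaxed motif, in 9 of 13 windows, and 9 of 13 also held the consensus. By gene, 23.5% of 27305 held the relaxed motif in at least 1 window. ZC3H12A was the gene with no match to either. The motif was written down with these sequences in view, and it was present in NFKBIB and TNIP3 as well as in the genes that were higher. A match describes the letters of the window and shows no binding. NFKBIE is not among the windows used.

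After 1 h, 4 of the 6 measured inhibitors (NFKBIA, NFKBIE, NFKBIZ and TNFAIP3) were at least 2-fold higher, beside 1.9% of all 14760 measured genes. TNIP1 joined them later. On the 3 h array 5 of 6 were higher, beside 3.1% of all genes. The same 5 were higher on the 6 h array, beside 4.21%, and on the 24 h array, beside 3.92%. On the 48 h array 0 of 6 were, beside 3.82% of all genes. No measured inhibitor was at least 2-fold lower on any array, where 1.46%, 3.52%, 6.44%, 6.12% and 6.11% of all genes were, in order of time. The median log2 ratio of the 6 was 1.15, 1.59, 1.77, 1.09 and 0.56 over the same 5 arrays, and that of all measured genes lay between -0.04 and 0.00.

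The order of the ratios changed over time. TNFAIP3 ranked 8 from the top among 14760 genes after 1 h, 10 after 6 h and 21 after 24 h, but 2597 after 48 h. NFKBIA ranked 24 after 1 h and 440 after 24 h, whereas NFKBIE stood at place 140 after 1 h, 54 after 6 h and 72 after 24 h. The log2 ratios of NFKBIE and NFKBIA on the 6 h array, 2.19 and 2.18, differ by less than the spread described next. On the 48 h array the order was NFKBIE (0.87), TNIP1 (0.85), NFKBIZ (0.72), TNFAIP3 (0.40), NFKBIB (-0.34) and NFKBIA (-0.43). The central 95% of all measured genes ended at a log2 ratio of 0.89 on the 1 h array, with 4 of the 6 inhibitors above it. It ended at 1.16 on the 48 h array, with 0 above it.

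With no replicate, the spread between probe sets of one gene is the nearest measure of error. As a robust SD of the log2 ratio per probe set, it was 0.14 after 1 h and 0.24 after 48 h where the dimmer probe set of a pair averaged a signal over 1024. For signals of 64 to 256 it was 0.32 after 1 h and 0.43 after 48 h. It contains real differences between transcripts and leaves out the variation between cultures. The ratios of TNFAIP3, NFKBIA and NFKBIE on the 3 h and 6 h arrays were several times this spread. Of the 19 calls, 6 lie within the spread for their own signal of the 2-fold line. They are those of NFKBIZ after 1, 6 and 24 h (log2 ratios of 1.02, 1.17 and 1.00), of NFKBIE after 1 h (1.27), and of NFKBIA and TNIP1 after 24 h (1.09 and 1.08). Among ratios that were not called, those of NFKBIE and TNIP1 after 48 h (0.87 and 0.85) also lie within the spread of the line. Setting the arrays to a common median ended the NFKBIZ call after 1 h (0.95), and quantile normalization (0.97) or a pseudocount (0.99) ended the one after 24 h.

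**Figure D2:**
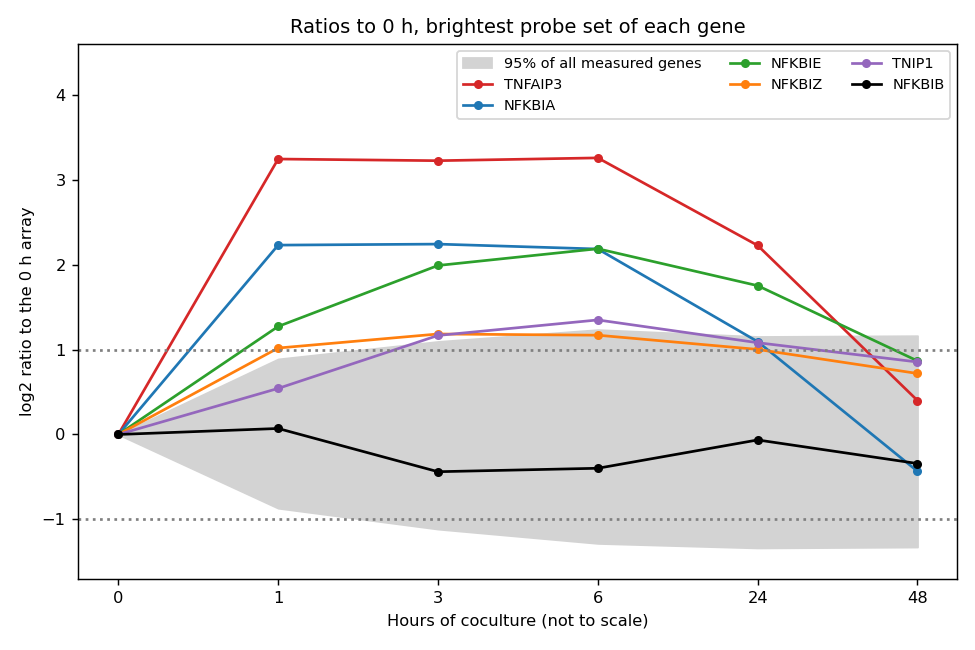
Log2 ratio to the 0 h array for the brightest probe set of the 6 measured inhibitors against hours of coculture, with the 2-fold lines dotted and the central 95% of 14760 measured genes in grey. TNFAIP3 lies between 3.23 and 3.26 on the 3 early coculture arrays, and all 6 genes lie inside the grey band on the 48 h array.

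Expressed as a share of its own largest rise over 0 h, each of the 5 genes that were higher showed how fast it climbed and how much it kept. By their brightest probe sets, TNFAIP3 and NFKBIA had each reached 99.0% of their largest rise after 1 h. NFKBIZ had reached 80.7%, NFKBIE 39.8% and TNIP1 29.5%. NFKBIE and TNIP1 reached their highest signal on the 6 h array. After 24 h NFKBIA kept 30.4% and TNFAIP3 43.0%, beside 66.6% for NFKBIE, 72.1% for TNIP1 and 78.8% for NFKBIZ. After 48 h the values were 3.73% for TNFAIP3, 23.1% for NFKBIE, 50.8% for NFKBIZ and 52.2% for TNIP1, and -6.95% for NFKBIA, which lay under its 0 h signal. The dimmer probe sets climbed more slowly. That of TNFAIP3 was at 71.4% after 1 h, 89.4% after 3 h and 100% after 6 h, and at 8.03% after 48 h. That of NFKBIZ was at 11.0% after 1 h and 28.9% after 48 h. The dim probe set of NFKBIA had hardly moved after 1 h, with signals of 21.9 against 21.6 at 0 h, and was highest after 24 h. The early plateau of NFKBIA and TNFAIP3 therefore holds for their brightest probe sets.

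**Figure D3:**
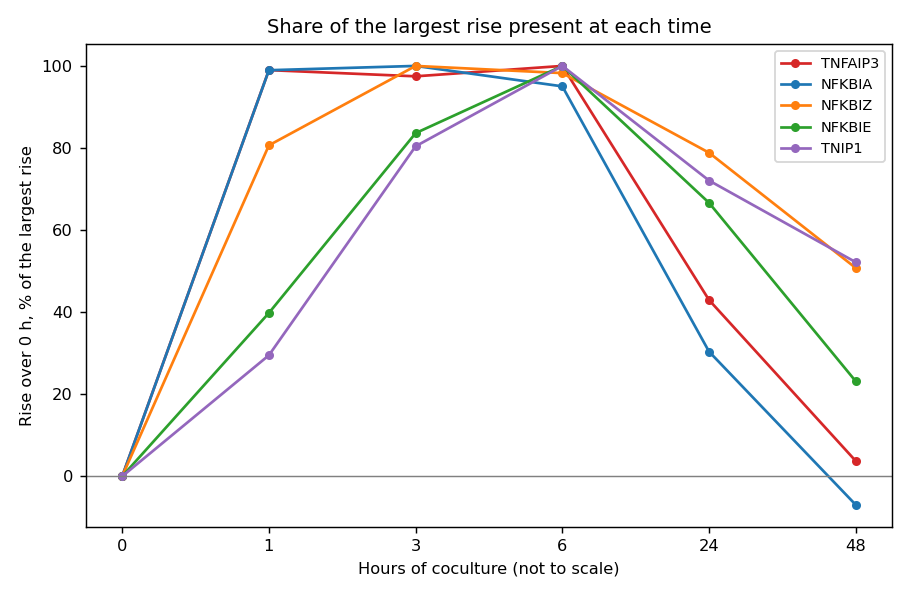
Signal above the 0 h level as a percentage of each gene's own largest rise, for the brightest probe sets of 5 inhibitors, against hours of coculture. TNFAIP3 and NFKBIA are at 99.0% on the 1 h array and at 3.73% and -6.95% on the 48 h array, where NFKBIZ and TNIP1 keep 50.8% and 52.2%.

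Successive arrays show where the signals turned. Between the 3 h and the 1 h array 0 of the 6 inhibitors differed 2-fold, beside 1.34% of all genes higher and 1.31% lower, and between the 6 h and the 3 h array again 0 did, beside 1.02% higher and 1.36% lower. Among the brightest probe sets, that of NFKBIE made the largest of these steps, 1.65-fold higher after 3 h than after 1 h. Some dimmer probe sets made larger ones. That of NFKBIZ was 1.72-fold higher after 3 h than after 1 h, and 214062_x_at of NFKBIB 1.81-fold higher after 6 h than after 3 h. On the 24 h array, set against 6 h, NFKBIA was 2.13-fold and TNFAIP3 2.04-fold lower, 2 of 6 genes beside 2.42% of all genes. On the same step 0 of 6 were higher beside 2.11%. The 2 log2 ratios, -1.09 and -1.03, sit almost on the 2-fold line. The dim probe set of NFKBIA was 1.34-fold higher over this step, and the dimmer one of TNFAIP3 2.39-fold lower. On the 48 h array, set against 24 h, the same 2 were lower again, NFKBIA 2.88-fold and TNFAIP3 3.55-fold, beside 1.37% of all genes, and 0 of 6 were higher beside 0.982%. TNIP1 was 1.20-fold and 1.17-fold lower over these late steps, and NFKBIZ 1.12-fold and 1.22-fold.

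Among the NF-kB subunits that the inhibitors bind, 3 of 5 were at least 2-fold higher after 1 h, 4 after 3 and 6 h, 2 after 24 h and 1 after 48 h, beside 1.9%, 3.1%, 4.21%, 3.92% and 3.82% of all measured genes. None of the 5 was lower, beside 1.46% to 6.44% of all genes. RELB, the partner of the non-canonical pathway, had a signal of 17.1 on the 0 h array, then 99.7, 128.8, 122.0, 90.6 and 46.5. NFKB2, whose precursor also acts as an inhibitor, had log2 ratios of 1.57, 2.34, 2.74, 1.69 and 0.69 over the 5 times. REL was highest after 1 h, with a log2 ratio of 1.99. RELA, the main activating subunit held by IkB-alpha, stayed under 2-fold, with log2 ratios of 0.08 to 0.61.

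Of the kinases and adaptors of the activating arm, 12 of 14 listed were measured. On each array 1 of the 12 was higher, beside 1.9% to 4.21% of all genes, and 0 were lower, beside 1.46% to 6.44%, so the counts are near what all genes gave. The list medians lay between -0.03 and 0.41. MAP3K14, the kinase of the non-canonical pathway, was the one after 1 h, with a log2 ratio of 1.15. BCL10, an adaptor that works with MALT1, was the one later, with 1.21, 1.39, 1.29 and 1.15. MALT1, a protease that cuts the TNFAIP3 and ZC3H12A proteins, had a log2 ratio of 0.79 after 6 h. The components of the IkB kinase stayed under 2-fold: CHUK had log2 ratios of 0.35 to 0.69, IKBKB of -0.68 to 0.01 and IKBKG of -0.43 to -0.04.

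Further brakes outside the 9 genes behaved in a mixed way. Of 20 measured genes of 21 listed, 4 were higher on the 1, 3, 24 and 48 h arrays and 5 on the 6 h array, beside 1.9% to 4.21% of all genes. None was lower, beside 1.46% to 6.44%, and the list medians were 0.02 to 0.38. ZFP36, which binds AU-rich elements and promotes decay of cytokine mRNA, had a signal of 165.1 on the 0 h array, then 734.9, 854.0, 1164, 383.4 and 229.7. ZC3H12D and ZC3H12C, relatives of ZC3H12A in the same RNase family, had log2 ratios of 2.41 and 1.72 after 3 h, and of 1.59 and 0.11 after 48 h. The partners of TNFAIP3 in ubiquitin editing diverged: ITCH and RNF11 were at 1.65 and 1.03 after 48 h, while TAX1BP1 stayed between -0.18 and 0.13. TNIP2, a relative of TNIP1, had a log2 ratio of 0.60 after 1 h and 1.10 after 24 h. CYLD, another deubiquitinase of the pathway, had log2 ratios of -0.76 to 0.00, and OTULIN, which removes linear ubiquitin chains, of -0.82 to -0.32.

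Known target genes of NF-kB were followed as well, and whether the brakes acted on them was not tested. Of 12 measured genes of 13 listed, 8 were higher after 1 h, 9 after 3 h, 10 after 6 h, 8 after 24 h and 3 after 48 h, beside 1.9%, 3.1%, 4.21%, 3.92% and 3.82% of all genes. On each array 0 of the 12 were lower, beside 1.46% to 6.44% of all genes. The median log2 ratio of the 12 targets was 2.04, 2.44, 2.84, 1.54 and 0.53, beside 1.15, 1.59, 1.77, 1.09 and 0.56 for the inhibitors. CXCL8, a neutrophil attractant, was under the floor on the 0 h array and had signals of 651.9, 925.4, 1541, 260.8 and 36.0 later, at least 94.9-fold higher after 6 h. CXCL1 and CXCL3, of the same chemokine family, had log2 ratios of 5.38 and 3.60 after 1 h and of 0.61 and 0.90 after 48 h. All these comparisons share the 0 h array.

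A list that pools genes named as needing IkB-zeta with genes named as having their mRNA cut by ZC3H12A had 7 of 12 measured. The part of either protein in the changes below was not tested. Of the 7, 1 was higher after 1 h and after 6 h and 0 on the other arrays, beside 1.9% to 4.21% of all genes, and 1 or 2 were lower on each array, beside 1.46% to 6.44%. With 7 genes such counts are no result about the list. ID1, an inhibitor of helix-loop-helix factors, had a signal of 433.0 on the 0 h array, then 1110, 127.5, 41.6, 40.3 and 33.6, first higher and then much lower. PI3, the protease inhibitor elafin, had a log2 ratio of 1.06 after 6 h. S100A9, a calcium-binding protein of myeloid cells and inflamed epithelia, had a signal of 33.7 on the 0 h array and was under the floor after 1, 3, 6 and 24 h. TFRC, the transferrin receptor, had log2 ratios of 0.27 to 0.53, and LCN2, a siderophore-binding protein, was under the floor on all 6 arrays.

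**Figure D4:**
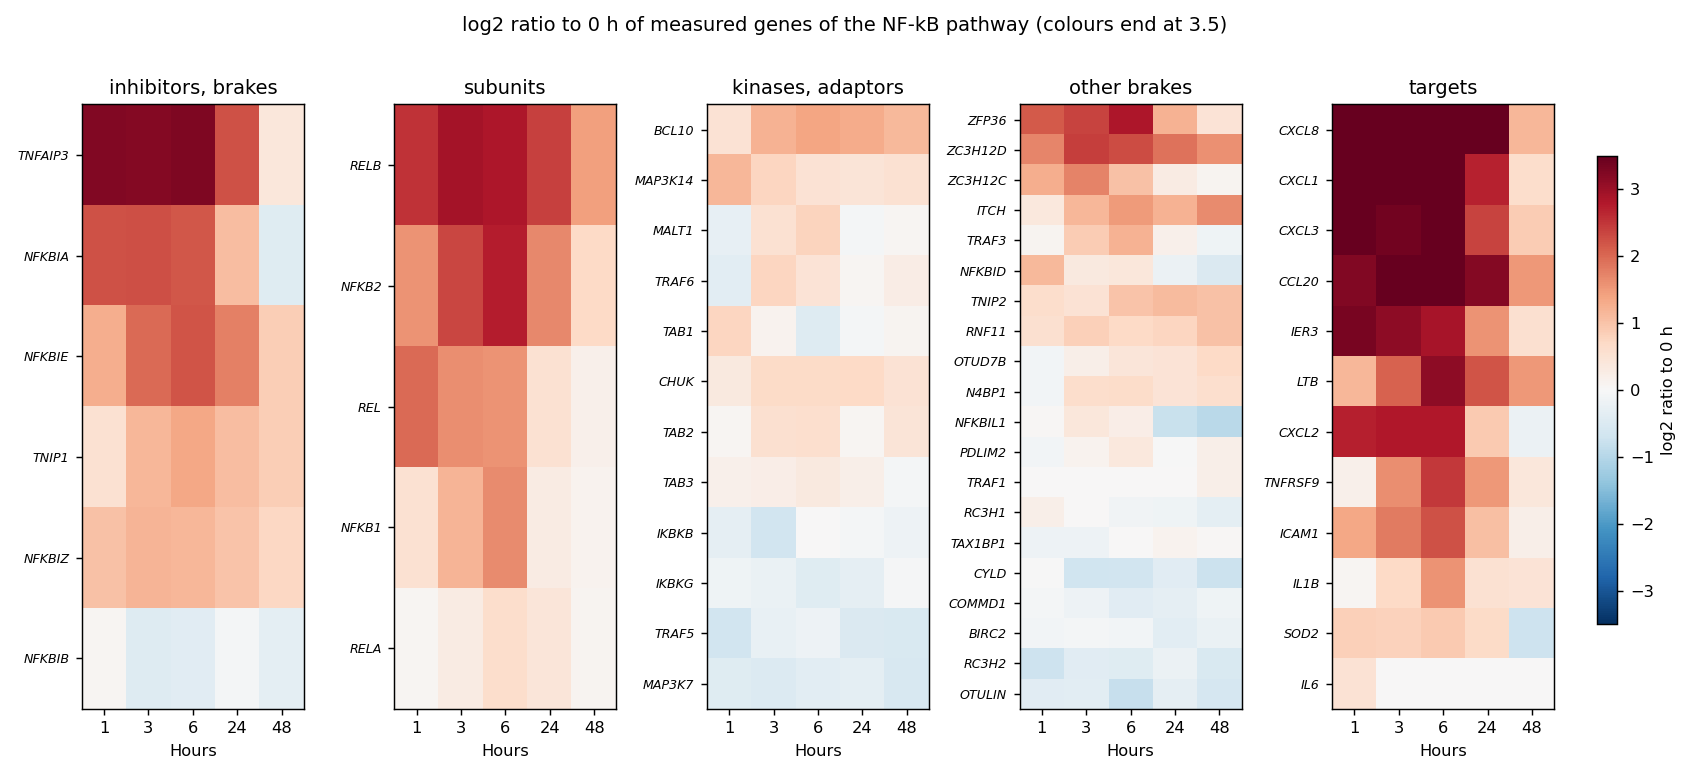
Log2 ratio to 0 h (colour, ending at 3.5 in both directions) of every measured gene in 5 lists of the NF-kB pathway, in columns for the 1, 3, 6, 24 and 48 h arrays, with genes ordered by their highest ratio. Targets reach list medians of 2.84 and inhibitors of 1.77 on the 6 h array, while kinases and adaptors reach 0.41.

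The courses of NFKBIA and TNFAIP3 were the most alike among the inhibitors, with Pearson's r of 0.97 between their log2 signals over the 6 arrays. NFKBIE had 0.95 with NFKBIZ and 0.93 with TNIP1, and NFKBIA had 0.50 with TNIP1. NFKBIB had -0.14 to -0.72 with the others. Likeness was then taken over about 3356 genes that were above the floor on all arrays and spanned at least 2-fold. Nearest to TNFAIP3 were CXCL3, KLF6 and ZNF503, with r of 0.99 for each. SREBF1, SLC25A25 and RTN4R were nearest to NFKBIA, and EIF5A2, DUSP4 and CMTM3 to NFKBIE. TNFRSF1B, FAM241A and RELB were nearest to NFKBIZ, SMURF1, PMEPA1 and PHLDA1 to TNIP1, and PAQR6, H2BC21 and NUP214 to NFKBIB. These values describe 6 arrays of one time course, and with so few points high values are common.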

How the data were processed

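Gene expression was measured on 6 Affymetrix arrays, 1 per time of coculture, from 4 µg of total RNA each, per the labels' protocols. The deposited intensities are linear MAS5 signals, with MAS5 named in the submitters' processing notes. Its version, scaling target and detection calls: not given in the sources used here. The 2% trimmed mean was 93.8 on each array, so the values were left unscaled.

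A floor was set at a signal of 16.2, the pooled 50th percentile, before log2. Of 54675 probe sets, 41091 had 1 symbol, 1801 several and 11777 none, and 6 of the manufacturer's 62 control probe sets, which carry a symbol, were left out. RefSeq (GRCh38.p14) held 41037 by gene identifier and gave the current symbols. The probe set of highest mean log2 signal stood for a gene. A fold against the floor is a lower bound. The ratio and call steps were tested on simulated data, with planted changes well above the 2-fold rule. Calls near the 2-fold line were not covered by that test. Python 3.11.15, numpy 2.4.6 and pandas 2.3.3 were used.

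The 9 genes and the pathway lists were chosen with earlier results of these data known. All 9 genes are accounted for. From each pathway list the 3 genes with the largest change were named, plus genes whose role pairs with an inhibitor, and for each inhibitor the 3 genes most alike in course. The number of arrays limits the precision. Alternatives were other normalizations, floors, a pseudocount, probe set choices, size rules and the 1 h array as baseline.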

Additional observations from a re-analysis of the deposited data

How the results depend on the processing

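The log2 ratios of the 6 measured inhibitors moved by less than the spread between probe sets under quantile normalization, a common median, a pseudocount and the lower and higher floor (6.38 and 37.5), 30 values each. Leaving out probe sets whose names end _x_at or _s_at left 4 inhibitors. TNFAIP3 and NFKBIZ dropped out, as all their probe sets end _s_at, and NFKBIA, NFKBIB and TNIP1 kept only a dim one. Of the 4, 1 was higher on the 1, 3, 6 and 24 h arrays (NFKBIE) and 1 on the 48 h array (NFKBIB, by a dim probe set). The median log2 ratio of the 4 was 0.12, 0.54 and 0.44 after 1, 3 and 6 h. Taking each gene's median probe set gave 0.86, 1.25 and 1.26 for these times, with 3, 4 and 4 inhibitors higher, and 3 after 24 h. It ended the TNIP1 calls after 3, 6 and 24 h (0.58, 0.67 and 0.69) and the NFKBIZ calls after 1 and 24 h (0.60 and 0.78). A 3-fold rule left 2 higher after 1 h, 3 after 3 and 6 h and 2 after 24 h. A 1.5-fold rule gave 3 after 48 h (NFKBIE, NFKBIZ and TNIP1). The share of all genes called under these settings was not computed, so the counts are no result about the inhibitors.

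Against the 1 h array as baseline, 0 inhibitors were higher after 3, 6 and 24 h, and 2 (NFKBIA and TNFAIP3) were lower after 24 and 48 h. Of all genes, 1.34% were higher after 3 h on that baseline. The shares after 6, 24 and 48 h were not computed. The median log2 ratio of the inhibitors was then 0.089 after 3 h, 0.082 after 6 h, -0.076 after 24 h and -0.41 after 48 h. On that baseline the ratio turned negative for NFKBIA after 6 h (-0.046) and 24 h (-1.14), for NFKBIZ after 24 h (-0.016) and 48 h (-0.30), for TNFAIP3 after 3 h (-0.020), 24 h (-1.02) and 48 h (-2.84), and for NFKBIE after 48 h (-0.41), because their 1 h signals were already high. No paired analysis was possible because each time has 1 array, and for the same reason no array could be left out. Low signal limits TNIP3 and the dim probe sets of NFKBIA, NFKBIB and TNIP1.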
